A study of Mus musculus with 12 samples.

Results

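Nampt and 6 other genes of NAD metabolism were followed in the liver with and without REV-ERBα: Nmnat1, Nmnat3 and Nadsyn1, which complete NAD synthesis, Nnmt, which removes nicotinamide, and the NAD-dependent deacylases Sirt1 and Sirt3. They were taken by their symbols from tables that list 38926 gene symbols, and all 7 were among the 14488 genes with enough reads to be tested. The 12 libraries came from 4 groups of 3 livers: wild type (WT) and Rev-erbα knockout (labelled Rev KO) at ZT8, and the same genotypes at ZT20, where ZT counts the hours after lights on. All mice were 12 weeks old, male, fed ad libitum and of a mixed 129Ola/C57BL6 background, and the knockouts lacked REV-ERBα in the whole body. The study asked how the hepatic transcriptome is altered without this circadian repressor at a time of high and a time of low REV-ERBα. Levels are given as CPM, counts per 1e+06 counted reads after TMM scaling between libraries, and differences as log2 values fitted over all 12 libraries by edgeR, where a gene passes at a Benjamini-Hochberg adjusted p below 0.05.

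NAD is both a redox carrier and a substrate that sirtuins and poly(ADP-ribose) polymerases consume, releasing nicotinamide. NAMPT returns nicotinamide to nicotinamide mononucleotide, the rate-limiting step of salvage, and the NMNAT enzymes turn the mononucleotide into NAD. In liver, Nampt is known as a clock-controlled gene that CLOCK and BMAL1 drive through E-boxes, and SIRT1 in turn acts on clock proteins.

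The libraries held between 17641809 and 26060192 counted reads, so that 3 reads corresponded to 0.117 to 0.167 CPM. Hepatocyte markers summed to at least 49238 CPM in each liver, and those of neutrophils to at most 6.89 CPM and of lymphocytes to at most 2.91 CPM. Reads assigned to Nr1d1, the gene of REV-ERBα, remained in the knockouts (63.0, 71.9 and 80.6 CPM at ZT8 against 129, 96.2 and 75.3 in wild type), and the genotypes overlapped, with a log2 difference of −0.48 (adjusted p = 0.143, edgeR). Counts per symbol do not show which exons they came from. Without the wild-type livers described next, WT ZT8 replicates 2 and 3, the difference was −0.85 and passed (adjusted p = 0.0123, edgeR). Arntl, a gene that REV-ERBα is known to repress, separated the genotypes at ZT8, with at most 0.796 CPM in wild type and at least 22.7 CPM in the knockouts. At ZT20 neither gene checks the labels, since Arntl differed by −0.02 (adjusted p = 0.956, edgeR) and Nr1d1 was at 2.28, 1.86 and 2.15 CPM in wild type and 3.57, 2.96 and 2.09 CPM in the knockouts. In WT ZT8 replicates 2 and 3, but in no other liver, acute-phase transcripts were high: 10 such genes summed to 30977 and 39248 CPM against 9162 to 11817 CPM in the other 10 libraries. Saa1 alone stood at 4972 and 6489 CPM in these 2 livers and at 21.2 to 96.8 CPM elsewhere. The main results that rest on WT ZT8 are therefore also given without both, in a fit that leaves 1 wild-type liver at ZT8 and takes its spread from the other groups.

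Promoter windows are shown for the members that held a match to either motif named below, as RefSeq gives them for GRCm38.p6 (mm10). They run from 250 bases before to 50 bases after a transcript start. The capitals mark either CACGTG, the E-box, which reads the same on both strands, or AGGTCA, the half-site that REV-ERBα and other nuclear receptors bind, searched on both strands. Nampt and Sirt1 are shown up to the start, and Nmnat3 around its match.
Nampt, chr12:32820085-32820334, plus strand: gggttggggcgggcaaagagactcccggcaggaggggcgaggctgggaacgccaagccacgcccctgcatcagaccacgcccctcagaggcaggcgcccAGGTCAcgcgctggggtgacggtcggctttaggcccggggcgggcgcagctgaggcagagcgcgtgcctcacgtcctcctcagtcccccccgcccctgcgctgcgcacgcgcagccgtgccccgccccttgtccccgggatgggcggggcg
Sirt1, chr10:63339036-63339285, minus strand: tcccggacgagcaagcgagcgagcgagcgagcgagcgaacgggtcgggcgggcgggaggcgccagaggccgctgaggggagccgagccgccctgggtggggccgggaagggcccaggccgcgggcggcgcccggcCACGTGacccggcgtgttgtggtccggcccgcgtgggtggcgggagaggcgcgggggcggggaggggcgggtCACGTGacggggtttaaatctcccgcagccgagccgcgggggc
Nmnat3, chr9:98296581-98296610, plus strand: gctgggagcgcaAGGTCAagttcactcgcg
Among all 32851 mouse promoter windows, 7.15% held the E-box and 16.3% the half-site. Of 8 windows of 6 members, Sirt1 had the E-box, at 115 and 43 bases before the start. The half-site was found in Nampt, 151 bases before the start, and in Nmnat3, 24 bases after it. A match describes these letters and does not show binding. No window of Nnmt was used here.

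Nampt, on chromosome 12 (32819545 to 32853349, plus strand), had the largest fitted difference between genotypes after the more variable Nnmt, and it lay at ZT8. In wild type at ZT8, the level was 79.5, 113 and 162 CPM in replicates 1, 2 and 3, and in Rev-erbα-/- liver it was 72.9, 66.8 and 68.3 CPM. All 3 knockouts thus lay below all 3 wild types, and the knockouts were tightly grouped (69.3 ± 3.15 CPM, SD, n = 3) while the wild types were spread (118 ± 41.3 CPM). In bulk liver, fewer cells of a type and less RNA per cell cannot be told apart. The fitted log2 difference was −0.77 (standard error 0.21), which narrowly missed the threshold (adjusted p = 0.0521, edgeR). At ZT20 the genotypes overlapped, with 109, 100 and 89.4 CPM in wild type and 88.1, 103 and 106 CPM in the knockout. The log2 difference there was −0.00 (standard error 0.21, adjusted p = 0.998, edgeR), and the change of the genotype difference between times, 0.77, did not pass with edgeR (adjusted p = 0.183) and passed with DESeq2 (adjusted p = 0.0458). Without both high acute-phase livers it was 0.20 (adjusted p = 0.61, edgeR), and on leaving out 1 liver it ranged from 0.47 without WT ZT8 replicate 3 to 1.00 without replicate 1.

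**Figure D1:**
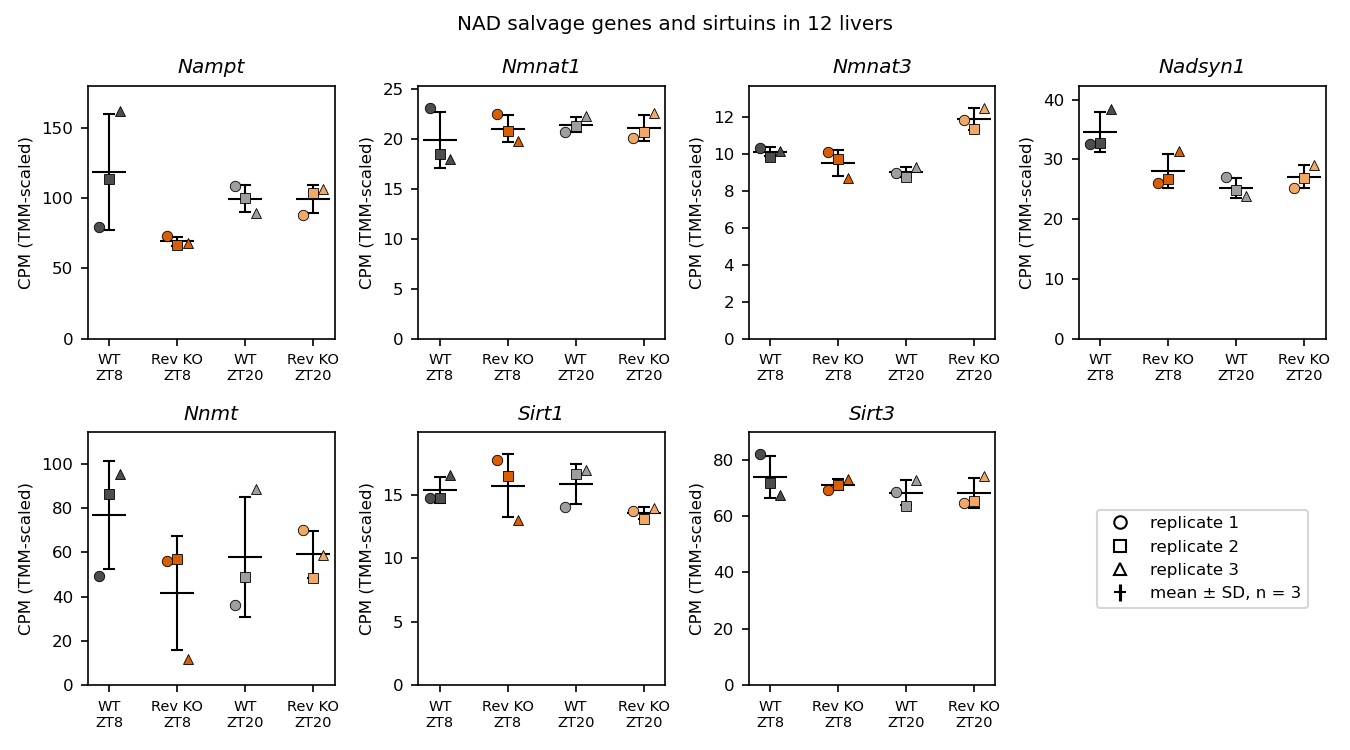
Level of each member in 12 livers (vertical axes, CPM after TMM scaling, from 0), by genotype and time, with symbols for replicates and bars for the mean and SD of 3 livers. Nampt is low and tight in Rev KO at ZT8 and spread in WT at ZT8, Nmnat3 is highest in Rev KO at ZT20, and Nnmt is at 11.9 CPM in 1 Rev KO liver.

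The wild-type spread of Nampt at ZT8 ran in the same order as the acute-phase genes. No other group showed this order. In Rev KO at ZT20 it was reversed, with acute-phase sums of 11817, 10943 and 9683 CPM beside 88.1, 103 and 106 CPM of Nampt. How many of all genes share the order in wild type at ZT8 was not counted. There, replicate 1, at 79.5 CPM, had 9922 CPM of acute-phase transcripts, replicate 2 had 113 CPM beside 30977, and replicate 3 had 162 CPM beside 39248. Of the 10 acute-phase genes, 7 passed as lower in the knockout at ZT8, in a comparison where 4.04% of all genes passed as lower. Without these 2 wild-type livers the log2 difference of Nampt at ZT8 was −0.20 (standard error 0.12, adjusted p = 0.543, edgeR), with the single remaining liver assumed to vary like the other groups. Its 79.5 CPM still exceeded the highest knockout value, 72.9 CPM. Leaving out WT ZT8 replicate 1 instead gave −0.99 (adjusted p = 0.000374, edgeR), and leaving out replicate 3 gave −0.48. DESeq2 on all 12 libraries gave −0.77 and passed (adjusted p = 0.000803), as did edgeR with at least 10 counts asked of every library (adjusted p = 0.0473). With replicate number added to the fit, the difference was −0.74 and did not pass (adjusted p = 0.0816, edgeR). Of 12 fits that left out 1 liver, only the 1 without WT ZT8 replicate 1 passed. Summed markers of Kupffer cells, cholangiocytes, endothelial cells and neutrophils ran in the same order over wild-type replicates 1, 2 and 3 at ZT8. Those of stellate cells, lymphocytes and pancreas did not. The summed level of 5 Kupffer cell markers was 268, 353 and 425 CPM, against 240 to 298 CPM in the knockouts at ZT8. That of 4 cholangiocyte markers was 32.7, 59.5 and 91.1 CPM, against 45.2 to 57.1 CPM. Most of the cholangiocyte sum was Spp1 (26.1 to 89.9 CPM over 12 livers), while Krt19 reached at most 1.91 CPM. The sum of 6 hepatocyte markers ran the other way, at 72534, 55713 and 49238 CPM. Alb held most of it (33751 to 77215 CPM over 12 livers), so the sum does not show that each marker did so. Alignments that were not unique numbered 1.76, 2.89 and 3.28 per counted read. The part of the acute-phase state, of these cells and of read uniqueness in the genotype difference was not tested.

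**Figure D2:**
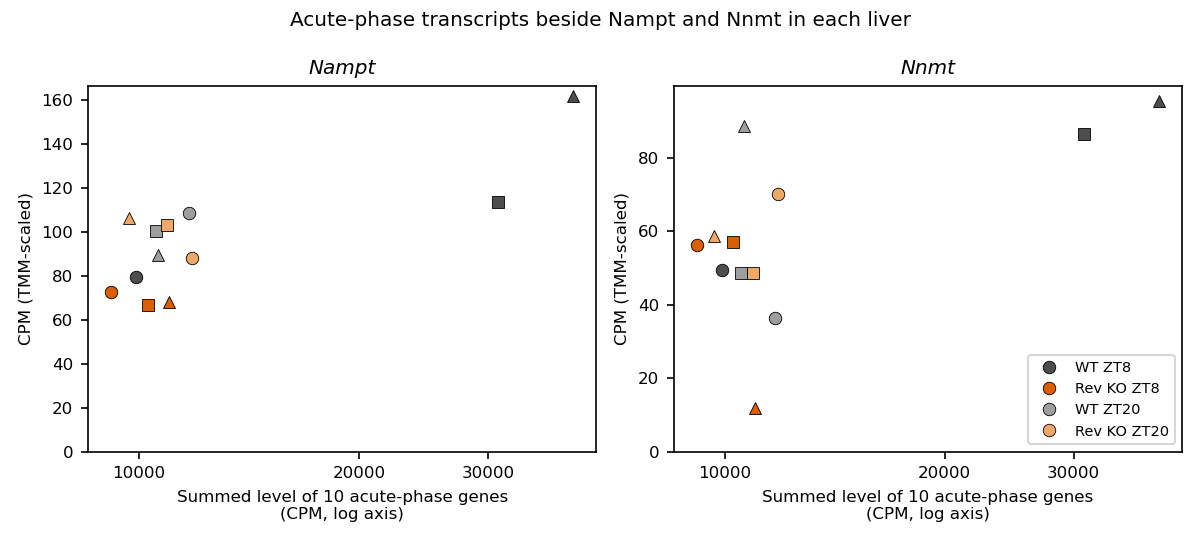
Level of Nampt (left) and Nnmt (right) in CPM against the summed level of 10 acute-phase genes (CPM, log axis), with 1 point per liver, colours for groups and the replicate symbols circle, square and triangle for 1, 2 and 3. The 2 WT ZT8 livers with the highest acute-phase sums, 30977 and 39248 CPM, have the 2 highest Nampt levels.

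The day-night difference of Nampt was clearest within the knockouts, which hold neither of the high acute-phase livers. Between ZT8 and ZT20 the knockout livers went from 66.8 to 72.9 CPM up to 88.1 to 106 CPM without overlap, as did 35.0% of all genes in either direction. This was a log2 difference of 0.52 (standard error 0.21). With the spread shared over all groups this did not pass (adjusted p = 0.124, edgeR). Nor did it with replicate number added to the fit (0.51, adjusted p = 0.16, edgeR), and of 12 fits that left out 1 liver, 2 passed. It passed in a fit of the 6 knockout libraries alone (adjusted p = 0.00353, edgeR), without both high acute-phase livers (0.52, adjusted p = 0.00131, edgeR) and with DESeq2 (adjusted p = 0.0343). In wild type, where the groups overlapped, the log2 difference was −0.25 (adjusted p = 0.426, edgeR) and it turned to 0.32 without the 2 high livers (adjusted p = 0.136, edgeR).

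**Figure D3:**
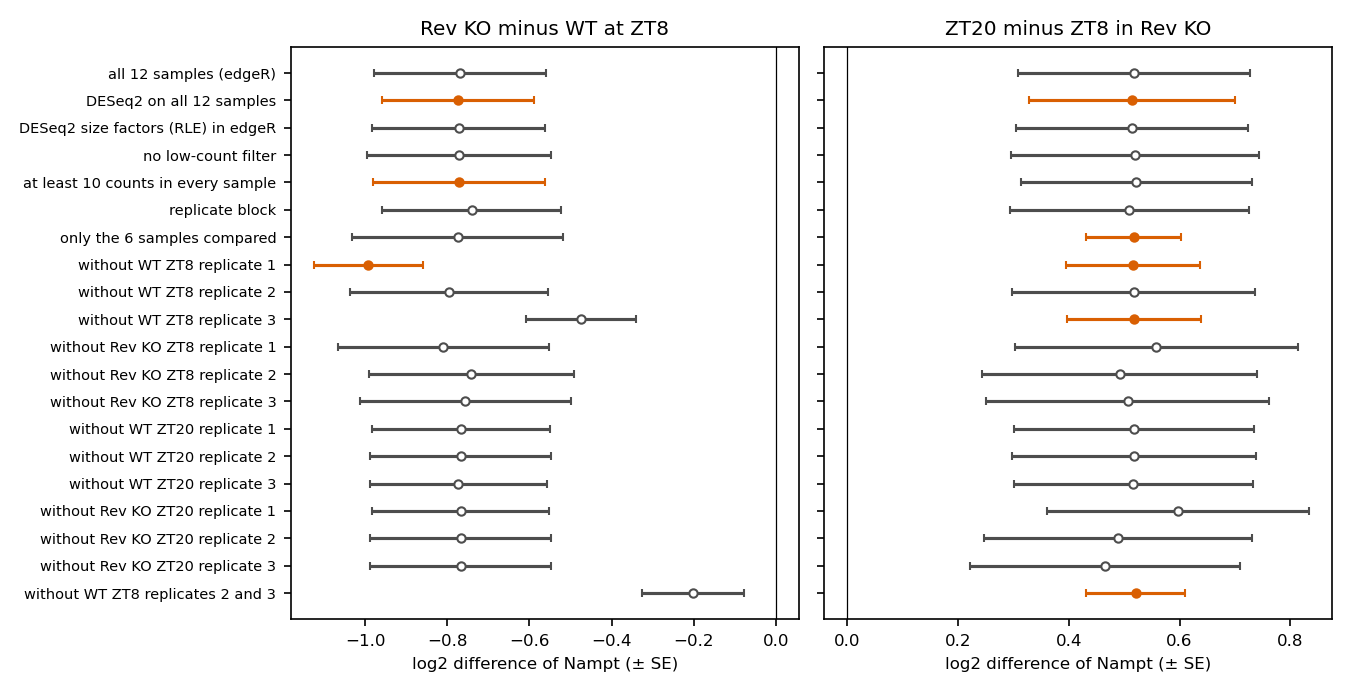
Log2 difference of Nampt with its standard error, between genotypes at ZT8 (left) and between times in Rev KO (right), under each way of fitting. Filled points have an adjusted p below 0.05, and the genotype difference runs from −0.99 without WT ZT8 replicate 1 to −0.20 without replicates 2 and 3, while that between times in Rev KO stays between 0.47 and 0.60.

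Across the 12 livers, the genes whose log2 CPM most resembled Nampt were Ivns1abp (Pearson r = 0.94), Ambp (0.93), Glrx (0.92), Tango2 (0.91) and Slc43a1 (0.91). Those that ran most against it were Hsd3b7 (−0.95), Ccdc96 (−0.94) and Sgk2 (−0.93). These points include the 2 high livers and share their libraries. Among the members, the correlation of Nampt was 0.50 with Nnmt, 0.45 with Nadsyn1, 0.18 with Nmnat3, 0.00 with Sirt1, −0.32 with Sirt3 and −0.52 with Nmnat1.

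Nmnat3 encodes the mitochondrial adenylyltransferase and lies on chromosome 9 (98287435 to 98420438, plus strand). It was the only member that passed between genotypes at ZT20, where 1 of 7 members passed against 3.63% of all genes. Knockout livers held 11.9, 11.3 and 12.5 CPM at ZT20 and wild-type livers 8.98, 8.76 and 9.30 CPM. Each of the 3 knockout livers at ZT20 also exceeded all 9 livers of the other groups, whose highest was 10.3 CPM. Of all genes, 22.5% did not overlap between genotypes at ZT20. The share with 1 group apart from all 9 other livers was not counted. The log2 difference was 0.40 (standard error 0.10, adjusted p = 0.0289, edgeR), and it was lost on leaving out any single ZT20 liver, with values from 0.36 to 0.44. At ZT8 the genotypes overlapped, at 10.3, 9.86 and 10.2 CPM in wild type and 10.1, 9.72 and 8.72 CPM in the knockout (log2 difference −0.09, adjusted p = 0.625, edgeR).

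The genotype difference of Nmnat3 changed between times by 0.49 (standard error 0.14, adjusted p = 0.0455, edgeR), the only such change among the members, in a test that 5.88% of all genes passed. Leaving out single livers ended this call in 11 of 12 cases, and it was not made with DESeq2 (adjusted p = 0.0599) or without both high acute-phase livers (0.53, adjusted p = 0.137, edgeR). Within the knockouts Nmnat3 rose from ZT8 to ZT20 by 0.32 (adjusted p = 0.0301, edgeR), as 1 of 7 members against 17.5% of all genes. DESeq2 gave an adjusted p of 0.0512 there. Wild-type livers went the other way without overlap, as 42.3% of all genes did not overlap there, by −0.17 (adjusted p = 0.216, edgeR). Nmnat1, the nuclear adenylyltransferase, varied little, with the highest of 12 livers at 1.28 times the lowest, and its log2 differences ran from −0.10 to 0.11 without passing in any comparison.

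Nadsyn1, on chromosome 7 (143795584 to 143822849, minus strand), encodes NAD synthetase, which amidates the last precursor of the route from nicotinic acid and tryptophan. It was the one member that passed between times in wild type, with 32.7, 32.8 and 38.4 CPM at ZT8 and 27.1, 24.8 and 23.8 CPM at ZT20. All ZT8 values lay above all ZT20 values, in a comparison where 42.3% of all genes did not overlap in either direction. The log2 difference was −0.46 (standard error 0.095, adjusted p = 0.00217, edgeR), where 27.7% of all genes passed. It held in each of 12 fits that left out 1 liver, and missed without both high acute-phase livers (−0.38, adjusted p = 0.0727, edgeR). In the knockout the times overlapped, with 26.1, 26.8 and 31.4 CPM at ZT8 and 25.3, 27.0 and 29.1 CPM at ZT20 (−0.05, adjusted p = 0.76, edgeR). The difference between these time effects, 0.40, did not pass (adjusted p = 0.0954, edgeR).

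**Figure D4:**
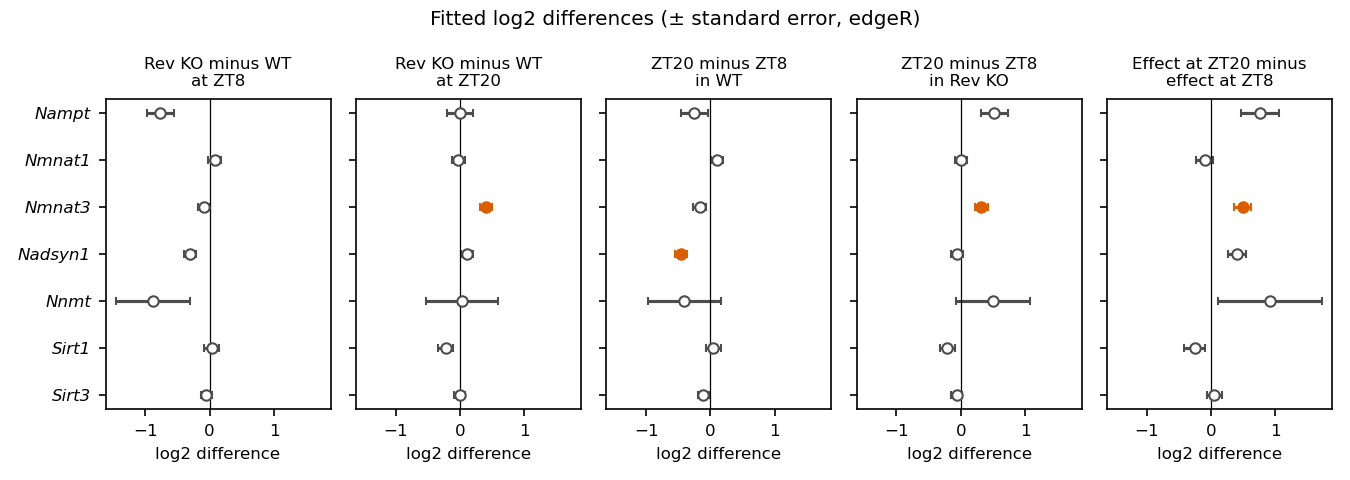
Log2 difference of each member with its standard error in 5 comparisons, from edgeR over 12 livers, with filled points where the adjusted p was below 0.05. Filled points are Nmnat3 between genotypes at ZT20 (0.40), between times in Rev KO (0.32) and for the change of the genotype difference (0.49), and Nadsyn1 between times in WT (−0.46).

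At ZT8 none of the 7 members passed between genotypes by edgeR, where 8.45% of all genes did. At an unadjusted p below 0.05 there were 2, and DESeq2 called 1. Here and below, counts by DESeq2 or at an unadjusted p are given without the share of all genes. They therefore do not show whether the listed genes pass more often than other genes. Nampt and Nadsyn1 were the 2 members whose genotypes did not overlap at ZT8, both lower in the knockout, while 25.6% of all genes did not overlap. For Nadsyn1 the log2 difference was −0.30 (adjusted p = 0.0627, edgeR), and it passed without Rev KO ZT8 replicate 3 (−0.39, adjusted p = 0.0255, edgeR) and without WT ZT8 replicate 1 (adjusted p = 0.0427, edgeR), but in none of the other 10 fits that dropped 1 liver. It was −0.22 both without WT ZT8 replicate 3 and without both high acute-phase livers (adjusted p = 0.513 for the latter, edgeR). Averaged over both times, no member passed by edgeR, 2 had an unadjusted p below 0.05 and DESeq2 called 1, Nampt (adjusted p = 0.0385), where edgeR passed 6.34% of all genes. By edgeR the averaged difference of Nampt was −0.39 with all livers, −0.10 without both high acute-phase livers (adjusted p = 0.616) and between −0.49 and −0.24 on leaving out 1 liver.

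Nnmt, on chromosome 9 (48591877 to 48605153, minus strand), methylates nicotinamide and so takes it out of salvage. It was the most variable member. Wild-type livers held 49.4, 86.3 and 95.3 CPM at ZT8 and 36.4, 48.6 and 88.7 CPM at ZT20. Knockout livers held 56.1, 57.1 and 11.9 CPM at ZT8 and 70.1, 48.6 and 58.7 CPM at ZT20. The groups overlapped in every comparison of genotype or time, and replicate 3 of Rev KO at ZT8 stood far below every other liver. The genotype difference at ZT8 was −0.89 on the log2 scale (standard error 0.58, adjusted p = 0.405, edgeR) and shrank to −0.44 without that liver. The wild-type values of 86.3 and 95.3 CPM came from the 2 high acute-phase livers, and without both the difference was −0.25 (adjusted p = 0.943, edgeR).

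No difference of the sirtuins passed with all 12 livers. Sirt1, the nuclear deacetylase on chromosome 10 (63319005 to 63381704, minus strand), stood at 14.0, 16.6 and 16.9 CPM in wild type at ZT20 and at 13.7, 13.1 and 13.9 CPM in the knockout. The knockout values lay just below the wild type without overlap, as 22.5% of all genes did in either direction, but the log2 difference of −0.22 did not pass (adjusted p = 0.392, edgeR). At ZT8 Sirt1 ranged from 14.7 to 16.6 CPM in wild type and from 13.0 to 17.7 CPM in the knockout. Without Rev KO ZT8 replicate 3, its difference between times in the knockout was −0.33 and passed (adjusted p = 0.0456, edgeR), against −0.21 with it (adjusted p = 0.233, edgeR). Sirt3, the mitochondrial deacetylase on chromosome 7 (140863666 to 140882309, minus strand), ranged from 63.7 to 82.1 CPM over all livers, with log2 differences between −0.11 and 0.05. Its exons overlap those of Ric8a (7.0%) and Psmd13 (5.73%) on the other strand, and in union mode reads in such an overlap go to neither gene. None of the other 5 sirtuins passed in any comparison by edgeR or DESeq2, and at an unadjusted p below 0.05 there was at most 1 in a comparison with either tool.

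Per length, over all 12 livers, Nnmt was the most abundant member with a mean of 37.4 RPKM (CPM divided by exon length in kilobases), followed by Nampt (19.1), Sirt3 (11.8), Nadsyn1 (8.70), Nmnat1 (6.86), Sirt1 (2.84) and Nmnat3 (2.03). Sirt1 and Nmnat3 lay close together, at 2.54 and 2.38 RPKM in the knockout at ZT20, and the range of Nnmt crossed that of Nampt.

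Among 43 other tested genes of NAD metabolism, few passed between genotypes by edgeR. At ZT8, 4 passed, a share close to the 8.45% of all genes. DESeq2 called 8 there, and with each tool 14 had an unadjusted p below 0.05, again without the share of all genes to set them against. At ZT20 none passed by edgeR or DESeq2, with 7 and 6 at an unadjusted p below 0.05. The genotypes did not overlap in 14 of the 43 at ZT8, against 25.6% of all genes, and in 9 at ZT20, against 22.5%. Kynu, which encodes kynureninase of the route from tryptophan to NAD, rose in the knockout at ZT8, from 200, 173 and 163 CPM to 307, 301 and 272 CPM (log2 difference 0.71, adjusted p = 0.000608, edgeR). Pnp, a purine nucleoside phosphorylase that also splits nicotinamide riboside, rose by 0.32. Naprt (listed as Naprt1), which starts synthesis from nicotinic acid, and Parp4, the vault-associated polymerase, fell by 0.26 and 0.45. Without both high acute-phase livers none of these 4 passed, with log2 differences of 0.55 for Kynu, 0.35 for Pnp, −0.17 for Naprt1 and −0.29 for Parp4 (adjusted p = 0.0605 for Kynu, edgeR). Nt5e, an ectonucleotidase that splits nicotinamide mononucleotide outside cells, was at 4.93, 10.2 and 13.2 CPM in wild type and 16.8, 17.6 and 14.5 CPM in the knockout at ZT8, a log2 difference of 0.80 that did not pass (adjusted p = 0.142, edgeR). It passed without both high livers, against the single wild-type liver at 4.93 CPM, the lowest of the 3.

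**Figure D5:**
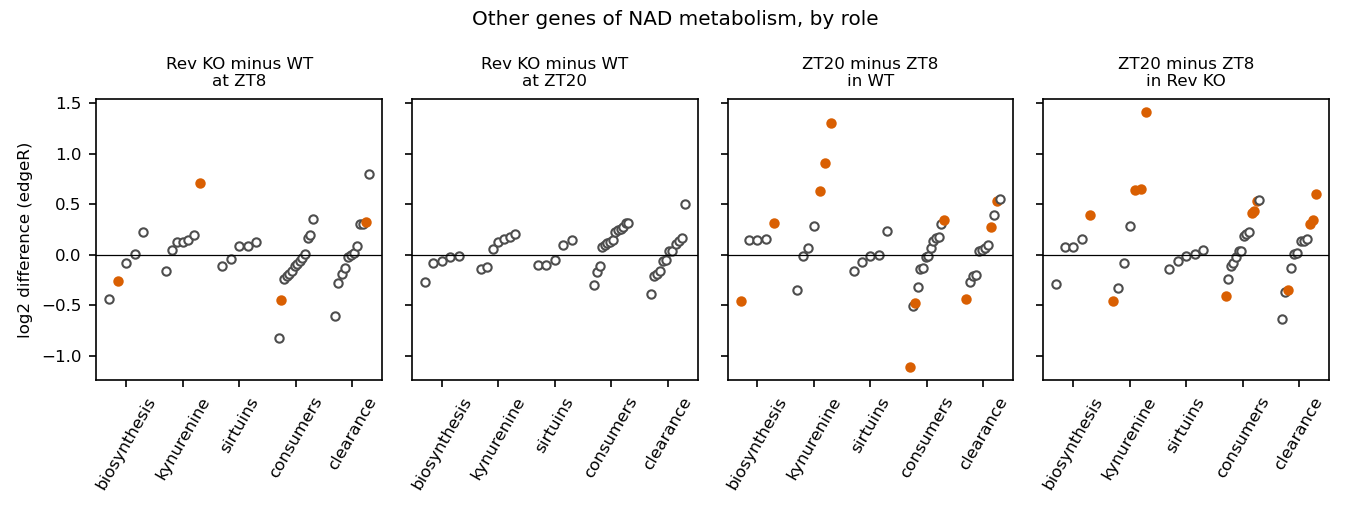
Log2 differences (vertical axis, edgeR) of 43 other genes of NAD metabolism in 4 comparisons, each point 1 gene, grouped by role. Filled points have an adjusted p below 0.05: 4 between genotypes at ZT8, 0 at ZT20, 11 between times in WT and 13 in Rev KO.

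Between times, more of these genes passed, as did more of all genes. In wild type 11 of 43 passed between ZT8 and ZT20, 7 higher and 4 lower at ZT20, and in the knockout 13 did, 10 higher and 3 lower. The shares of all genes that passed were 27.7% and 17.5%. Higher at ZT20 in both genotypes were 6 genes: Ido2 and Afmid, early enzymes of the tryptophan route, Acmsd, which diverts that route away from NAD, Parp1, Pnp and Nnt, the mitochondrial transhydrogenase. Ido2 went from 112 to 118 CPM up to 171 to 186 CPM in wild type (0.63) and from 101 to 105 CPM up to 160 to 163 CPM in the knockout (0.65). Afmid rose by 0.91 in wild type and 0.64 in the knockout, and Parp1, the main DNA damage-dependent polymerase, by 0.34 and 0.43. Acmsd rose by 1.30 and 1.42, with knockout livers at ZT20 spread over 88.6, 52.7 and 31.9 CPM.

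Parp4 was the one gene lower at ZT20 in both genotypes. It went from 28.7, 32.0 and 35.9 CPM to 14.5, 14.2 and 16.1 CPM in wild type (−1.11, adjusted p = 4.76e-07, edgeR) and from 23.3, 24.2 and 23.3 CPM to 17.9, 16.6 and 18.7 CPM in the knockout (−0.41, adjusted p = 0.00584, edgeR). The remaining wild-type calls were Qprt (higher) and Nmrk1, Parp10 and Enpp1 (lower), and the remaining knockout calls Naprt1, Parp3, Parp16 and Aox1 (higher) and Kynu and Aox3 (lower). Without both high acute-phase livers, 6 of the 11 wild-type calls and all 13 knockout calls still passed. The wild-type calls lost were Acmsd, whose difference went from 1.30 to 1.25, Parp10 (−0.47 to −0.36), Qprt (0.31 to 0.14), Nmrk1 (−0.46 to −0.085) and Enpp1 (−0.44 to −0.12). The share of calls over all genes that held in that fit is not given here.

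Clock genes with E-boxes, listed beside Nampt for reference, mostly fell from ZT8 to ZT20. Of 11, 8 passed as lower in wild type (median log2 difference −1.51) and 7 in the knockout (−1.42), against 13.9% and 8.67% of all genes. The corresponding differences of Nampt were −0.25 in wild type (0.32 without both high acute-phase livers) and 0.52 in the knockout. Between genotypes at ZT8, 1 of the 11 passed as lower, against 4.04% of all genes. It was Wee1 (−1.33, and −1.38 without both high acute-phase livers), and the median over the list was −0.19.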

How the data were processed

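RNA was sequenced from 12 livers as poly(A) libraries. The authors mapped reads to mm10 with TopHat and ran HTSeq-count on the unique alignments in its union mode, ignoring strand, with an alignment quality of 10 or more. The counts are per gene symbol, and the deposited values are these raw counts. The annotation version is not given in the sources used here. Per the labels' processing notes, the study used DESeq2 1.6.3. Genes were kept by edgeR's filterByExpr, scaled by TMM and fitted with edgeR's robust quasi-likelihood model (edgeR 4.0.16, R 4.3.3) with 1 coefficient for each of 4 groups. The p-values were adjusted by Benjamini-Hochberg over all 14488 genes, and DESeq2 1.42.0 served as an alternative. Log2 CPM for correlations used a prior count of 2. Exon lengths came from GENCODE vM21. The fit was tested on simulated data with 200 changed genes. No 2 libraries of the same group were duplicates.

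The members and gene lists were chosen with earlier results of these data known, and the acute-phase exclusion after seeing the data. Text names all 7 members, the pathway genes that passed in a comparison, and the genes correlating most with Nampt. Nt5e, Wee1 and Saa1 were named after their values were seen. Counting overlapping genes without strand drops ambiguous reads. The labels do not say that replicate numbers mark pairs. Arntl and Nr1d1 serve only to check the labels.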

Additional observations from a re-analysis of the deposited data

Results flagged for a closer look

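The genotype difference changed between ZT8 and ZT20, by edgeR's interaction term, in 4 of the 50 genes tested (7 members and 43 others), in a test that 5.88% of all genes passed. For Nmnat3 the change was 0.49 on the log2 scale, from −0.09 at ZT8 to 0.40 at ZT20. For Parp4 it was 0.70 and for Parp3, another poly(ADP-ribose) polymerase, 0.55, while for Kynu it was −0.53. Parp3 stood at 29.5, 32.2 and 32.4 CPM in wild type and 26.9, 27.5 and 25.5 CPM in the knockout at ZT8, and at 34.4, 30.9 and 27.6 CPM against 33.7, 38.8 and 42.9 CPM at ZT20. Without WT ZT8 replicates 2 and 3, none of the 4 passed: Nmnat3 gave 0.53 (adjusted p = 0.137, edgeR), Parp4 0.54 (adjusted p = 0.056, edgeR), Parp3 0.47 (adjusted p = 0.198, edgeR) and Kynu −0.36 (adjusted p = 0.348, edgeR).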

How the results depend on the processing

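Leaving out 1 liver at a time, 1811 genes passed between genotypes at ZT8 at most (without WT ZT8 replicate 1) and 542 at least (without replicate 2), 239 to 656 at ZT20, 493 to 1260 for the change between times, 2865 to 4195 between times in wild type, 1566 to 2847 in the knockout and 553 to 1348 for genotype averaged over times. The members that passed numbered 0 to 2, 0 to 1, 0 to 1, 1 to 2, 0 to 2 and 0 to 1 in the same order, and the pathway genes 2 to 9, 0 to 2, 1 to 5, 7 to 15, 11 to 18 and 1 to 7. Signs turned only for members that had not passed with all 12 livers. Between genotypes at ZT8, Sirt1 ranged from −0.068 to 0.16 and Sirt3 from −0.11 to 0.027. At ZT20, Nampt ranged from −0.067 to 0.076, Nmnat1 from −0.075 to 0.011, Nnmt from −0.22 to 0.48 and Sirt3 from −0.071 to 0.048. Between times in wild type, Nampt ranged from −0.48 to 0.045 and Sirt1 from −0.018 to 0.13, and in the knockout Nmnat1 from −0.047 to 0.059 and Nadsyn1 from −0.11 to 0.034. For the change between times, Sirt3 ranged from −0.028 to 0.11, and averaged over times Nmnat1 ranged from −0.0060 to 0.090 and Sirt3 from −0.061 to 0.013.

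Without both WT ZT8 replicates 2 and 3, 346 genes passed between genotypes at ZT8, 493 for the change between times, 1795 between times in wild type and 494 averaged over times. Members that passed were then 0 for the change between times, 0 for time in wild type and 2 for time in the knockout, and pathway genes 1 at ZT8, 1 at ZT20, 1 for the change and 2 averaged. Nmnat1 turned to −0.14 at ZT8, 0.12 for the change, −0.11 for time in wild type and −0.080 averaged, Nampt to 0.0013 at ZT20 and 0.32 for time in wild type, and Nnmt to 0.22 for the latter. These fits have fewer samples. With only the 6 samples compared, 769 genes and 2 pathway genes passed at ZT8 and 1 pathway gene at ZT20. DESeq2 called 1 member and 8 pathway genes at ZT8, 1 member and 7 pathway genes averaged over times, and put Nmnat1 at −5.34e-05 for time in the knockout. With at least 10 counts in every sample, 1 member passed at ZT8. With no filter on low counts 0 members passed at ZT20, for the change between times and for time in the knockout, and Nampt was 0.0031 at ZT20. Beyond the samples left out, the cause was not tested.

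Samples that share a replicate number did not deviate together (correlation −0.0144 on average over 18 pairs, from −0.0832 to 0.0738). With so few livers a group, this cannot settle whether the numbers mark pairs. With the replicate block, 1210 genes passed between genotypes at ZT8 and 479 at ZT20, and 0 members passed for the change between times, where Nmnat3 was 0.49 (adjusted p = 0.0665, edgeR). The 6-sample fits give no value for the change between times or the average and were not run for these. With 3 livers a group, the adjusted p-values measure the spread between these animals only.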
